A study of Homo sapiens with 42 samples.

Results

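FOS, ATF3, KLF4 and MYC encode transcription factors of the immediate early class, and they are 4 of the 5631 genes that the array's probes name singly. They had 5 of its 13824 probes. The members were every probe whose platform annotation named 1 of these 4 genes and no other gene. FOS had 2 probes, numbered 7017 and 10599, ATF3 had probe 8675, KLF4 had probe 7208 and MYC had probe 10369, and 0 probes named a member together with another gene. All 5 probes stayed above the intensity floor on all 42 arrays, and none was removed. The arrays measured total RNA of Hep3B, a human hepatoma cell line, with 1 array per culture. CM is, per the labels, a medium rich in pro-inflammatory cytokines, and NCM is its control medium; the cytokines, their doses and the wording of both abbreviations are not stated there. Cultures in either medium were sampled at T0 and, after it, at 15 min, 30 min, 1 h, 3 h, 6 h and 16 h. There were 3 independent experiments, which gave 14 groups of 3 arrays, and in each experiment the CM and NCM culture of a time were set up from the same trypsinized cells and form a pair. Every culture is of the same line, and the study holds no other cell type.

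Immediate early genes are transcribed within minutes of a stimulus from transcription factors that are already present in the cell, so their mRNA can appear before new protein is made. Many of these mRNAs are short-lived, and their levels can fall again within hours. FOS pairs with JUN proteins to form AP-1, which binds the TGANTCA motif. ATF3 is a stress-induced member of the ATF and CREB family and often represses its targets. KLF4 is a zinc finger factor that binds GC-rich DNA, and MYC binds E-boxes with its partner MAX and drives growth and ribosome production. In liver cells such genes are known to respond to partial hepatectomy, stress and inflammatory cytokines such as interleukin 6 and tumour necrosis factor.

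The stretches just before the annotated start sites are shown as background, and which start sites the cells used was not measured. They were read from RefSeq, build GRCh38.p14, as the 250 bases before each start, 5′ to 3′ on the gene's strand. FOS lies on the plus strand at chr14:75278578-75278827. The ATF3 entries lie on the plus strand at chr1:212565157-212565406 and chr1:212614768-212615017. KLF4 lies on the minus strand at chr9:107489770-107490019. Of the 4 genes 3 had an entry, and MYC is named only. Capitals mark any match on either strand to the motifs searched. The cyclic AMP response element was searched as TGACGTCA and its shorter form, which lies inside it, as TGACG. The AP-1 motif was searched as TGANTCA. The STAT motif was searched as TTCNNNGAA. The E-box was spelled CACGTG and the TATA box was spelled TATAAA. The CArG box and the NF-kappaB motif were searched too.
FOS: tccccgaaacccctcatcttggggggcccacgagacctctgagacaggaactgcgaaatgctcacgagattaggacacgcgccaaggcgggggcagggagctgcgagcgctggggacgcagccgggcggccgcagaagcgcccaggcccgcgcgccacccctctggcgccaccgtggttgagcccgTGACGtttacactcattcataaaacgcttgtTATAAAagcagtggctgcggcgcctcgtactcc
ATF3, first entry: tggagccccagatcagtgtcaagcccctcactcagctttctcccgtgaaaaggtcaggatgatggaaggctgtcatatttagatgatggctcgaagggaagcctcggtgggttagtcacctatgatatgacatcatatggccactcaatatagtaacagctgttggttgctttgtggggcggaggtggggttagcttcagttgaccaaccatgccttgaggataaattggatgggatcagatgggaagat
ATF3, second entry: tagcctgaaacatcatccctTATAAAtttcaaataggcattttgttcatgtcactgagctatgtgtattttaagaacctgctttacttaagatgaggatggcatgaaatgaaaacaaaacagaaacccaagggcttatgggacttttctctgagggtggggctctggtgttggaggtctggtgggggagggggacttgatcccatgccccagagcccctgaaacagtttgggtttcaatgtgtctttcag
KLF4: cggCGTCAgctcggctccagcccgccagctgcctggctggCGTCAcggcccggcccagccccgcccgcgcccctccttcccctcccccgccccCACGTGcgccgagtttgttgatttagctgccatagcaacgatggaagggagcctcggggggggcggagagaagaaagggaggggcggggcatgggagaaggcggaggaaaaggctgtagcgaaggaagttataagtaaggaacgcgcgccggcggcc
The FOS stretch held TGACG starting 64 bases before the start and TATAAA starting 33 bases before it. The KLF4 stretch held TGACG on the opposite strand at 247 and 210 bases before the start and CACGTG at 157 bases. The first ATF3 entry held none of the capitalised motifs, and the second held TATAAA at 230 bases. Other start sites and bases further upstream were not searched, so a motif absent here may still lie elsewhere in the gene's promoter. GGGCGG, the GC box, was also searched but left in lower case, and it occurred 4 times in KLF4, 1 time in FOS and 1 time in the first ATF3 entry. Among 35116 RefSeq windows of the same length, TGACG occurred in 21.2%, GGGCGG in 42.6%, TATAAA in 10.7% and CACGTG in 6.34%. TGACGTCA occurred in 1.65% of the windows, TGANTCA in 6.57%, TTCNNNGAA in 6.57%, the CArG box in 1.16% and the NF-kappaB motif in 5.21%. These are letter matches in the window shown, and nothing about binding was measured.

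The deposited values were linear intensities with an array mean between 0.999 and 1.00, and the levels below are log2 of quantile-normalized intensities. A level on that scale belongs to its own probe, so the changes below rest on levels compared between arrays and not between probes. Changes are CM minus NCM within pairs, with the SE and p from limma, whose spread is pooled over the pairs of all times. Markers were compared between probes as a description only, each gene by its brightest probe. The median probe is that of all single probes, so a gene with several probes is more likely to lie above it. What share of all genes lies above it in this way was not counted. Of 16 hepatoma marker genes 15 were measured, and 15 had a level above the median probe, with APOA2, a liver apolipoprotein, as the brightest. Also above it were 4 of 7 leukocyte, 2 of 5 fibroblast, 1 of 5 endothelial and 1 of 3 red cell markers. Among these the endothelial marker ENG stood at 1.58. The median level of the markers was 0.52 for hepatoma cells, -0.45 for leukocytes (7 of 13 measured), -1.02 for fibroblasts (5 of 7), -1.60 for endothelial cells (5 of 6) and -1.21 for red cells (3 of 4). The mean hepatoma marker level per array ran from 0.49 to 0.90 in CM and from 0.49 to 1.08 in NCM, and that of the leukocyte markers from -1.11 to -0.20 and from -0.92 to -0.32. Arrays fell into 4 clusters of 24, 8, 4 and 6, and both arrays of a pair were in the same cluster in 21 of 21 pairs. Gene names rest on the platform annotation. The 6 ALB probes were each brighter than at least 85.9% of probes, while across 814 genes with 2 probes the mean levels of the probes correlated at only 0.13 and their pair differences had a median correlation of 0.02.

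Part of the deposited values of FOS and MYC also stood elsewhere in the table. A set here is the 6 values of 1 probe at 1 time, in the order of medium and experiment, and sets were compared on the deposited intensities, which carry 9 decimals. Of 96768 sets, 116 were equal on all 6 arrays to another set, and 6 further pairs of sets had the same last 6 decimals on all 6 arrays but differed in earlier digits on some. Together 128 sets (0.132%) were involved, with 12 to 33 at each time. Among the 35 sets of the members there were 10, which lay at 2 times of MYC, 3 of FOS probe 7017 and 5 of FOS probe 10599. For ATF3 and KLF4 0 of 42 values each were equal to any other value in the table.

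The MYC values at T0 were those of JUN, probe 8721, at 16 h on all 6 arrays. The MYC values at 1 h were those of CRY2, a circadian repressor with probe 10424, at T0 on 4 of 6 arrays. On the other 2 arrays the last 6 decimals were the same but the MYC intensity was 0.968 against 0.468 (CM, experiment 1) and 0.354 against 0.474 (NCM, experiment 3), which are differences of 0.5 and -0.12. FOS probe 10599 at 1 h equalled ZNF302, probe 10034, at T0 on 5 of 6 arrays, with 0.171 against 0.271 on the sixth (NCM, experiment 1). FOS probe 10599 at 15 min, 3 h and 16 h equalled FOS probe 7017 at T0, 30 min and 16 h on all 6 arrays, and at T0 it equalled probe 1856, which names no gene, also at T0. Which place a shared set was measured at cannot be told from the table, so the changes of MYC and FOS at these times are given as deposited values and nothing is read from them.

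**Figure D1:**
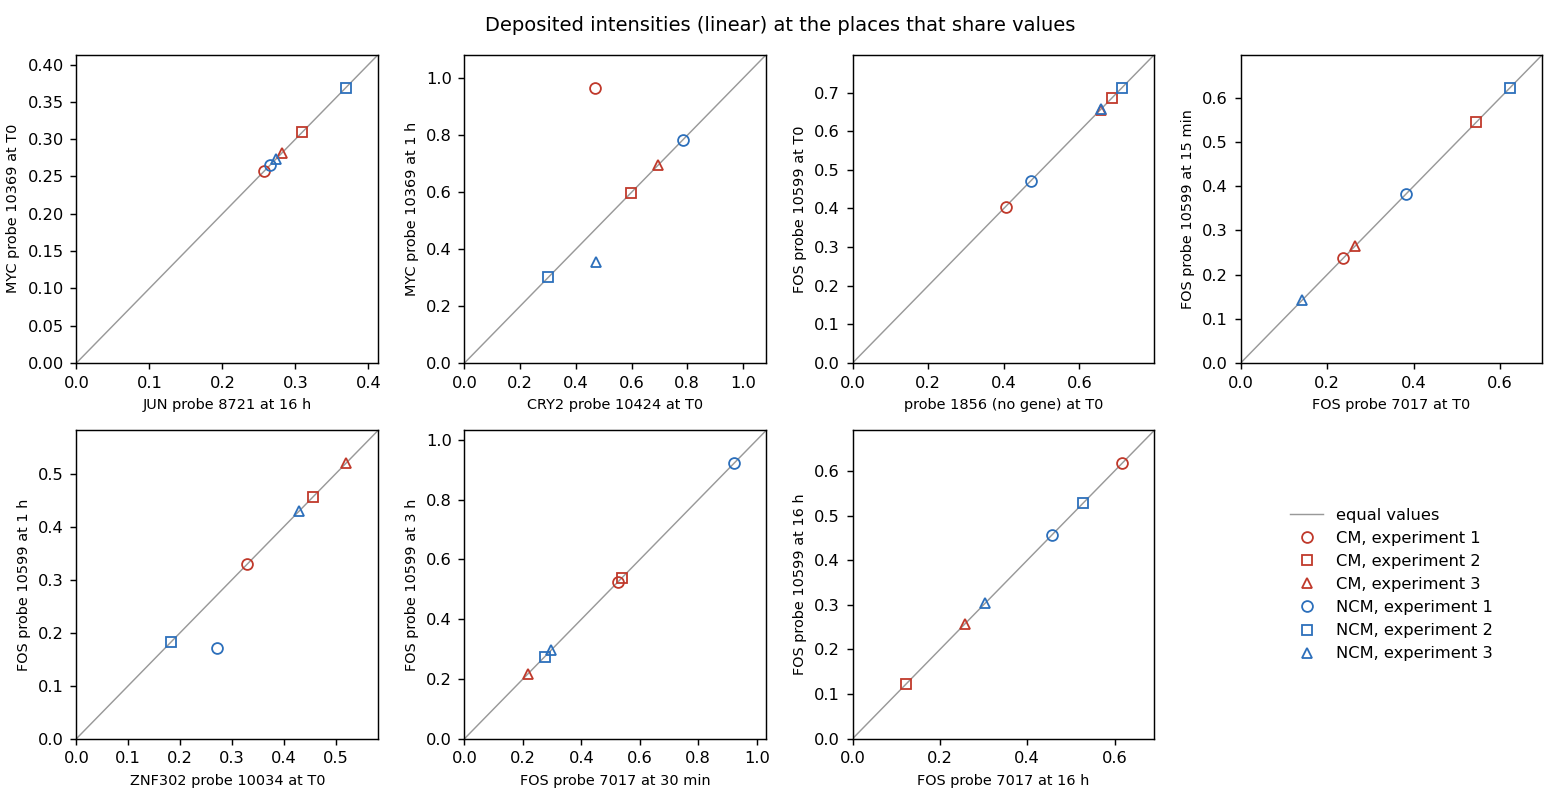
Each panel sets the 6 deposited linear intensities of a member at 1 time (y axis) against those of another probe or time (x axis), with CM arrays in red, NCM arrays in blue, symbols by experiment and a grey line of equal values. All points lie on the line except for 2 arrays of MYC at 1 h, at 0.968 and 0.354, and 1 array of FOS probe 10599 at 1 h, at 0.171.

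No member passed the threshold of 0.05 after adjustment over all probes at any time, so every change below is given as a value. The percentage of all probes called was 0% at T0, 15 min, 30 min, 1 h, 3 h and 6 h and 0.00723% at 16 h, where 1 probe was called. At an unadjusted p under 0.05, limma found 485 probes at 30 min and 605 at 1 h, fewer than the 700 at T0. Both counts are also less than a share of 0.05 of the 13824 probes. Among the 35 combinations of probe and time, CM was higher in 3 of 3 pairs in 5 and lower in 3 of 3 pairs in 2, and the CM and NCM arrays did not overlap in 3. The 5 were ATF3 at 30 min, KLF4 at T0 and 30 min, and MYC at 1 h and 6 h. The 2 were KLF4 and FOS probe 7017 at 6 h. Of all probes, 9.47% at T0, 8.8% at 30 min, 15.6% at 1 h and 13.3% at 6 h were higher in 3 of 3 pairs. At 6 h 11.3% were lower in 3 of 3 pairs. CM arrays lay all above the NCM arrays in 1.17% at 30 min and 2.4% at 1 h, and all below in 2.18% at 6 h. MYC at 1 h, which is also among the 3, is a shared set and the others are not. The plot of levels by time shows where these values sit among the single arrays.

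**Figure D2:**
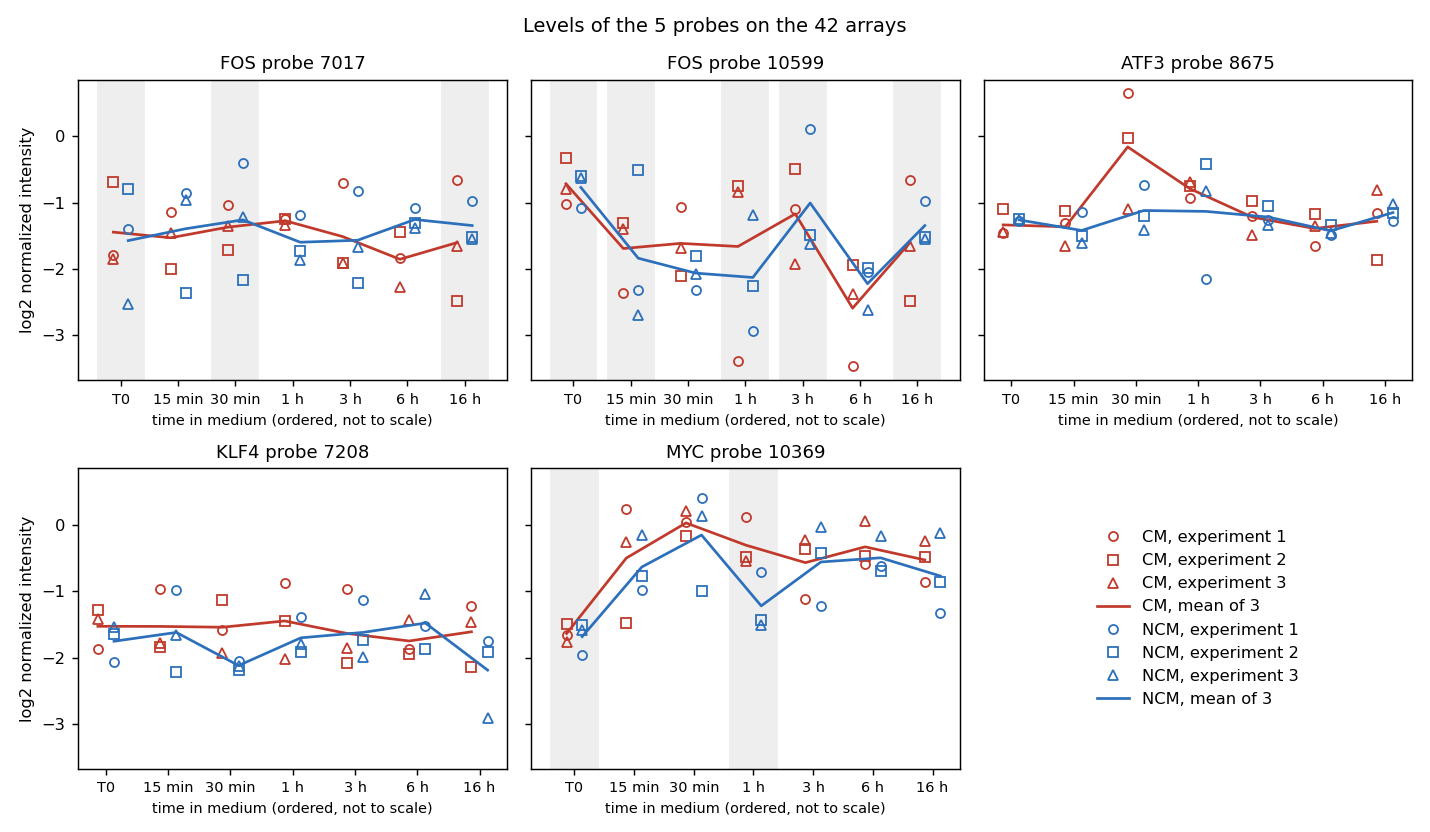
Each panel shows 1 probe, with time in order on the x axis (not to scale) and log2 normalized intensity on the y axis; symbols are single arrays, shaped by experiment, and lines join the means of 3 arrays in CM (red) and NCM (blue). ATF3 in CM stands highest at 30 min with arrays from -1.10 to 0.65, while KLF4 at 30 min lies between -1.92 and -1.12 in CM and between -2.19 and -2.04 in NCM. Grey bands mark the times at which a probe shares its values with another probe or time.

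ATF3 had its largest difference between the media at 30 min, when its mean level was 1.94-fold higher in CM. At 30 min ATF3 levels were 0.65, -0.02 and -1.10 in CM and -0.73, -1.20 and -1.42 in NCM for experiments 1, 2 and 3. CM was the higher medium in each pair, but the groups overlapped, since the CM array of experiment 3 lay below the NCM array of experiment 1. The pair differences were 1.38, 1.18 and 0.32, with a mean of 0.96 (SE 0.26, SD between pairs 0.56, n = 3 pairs, adjusted p = 0.997). By p this was probe 7 and by size probe 23 of the 13824 probes at 30 min. At that time 8.8% of all probes were higher in CM in 3 of 3 pairs. A level in bulk RNA cannot tell fewer cells with the mRNA from less of it per cell. The pair of experiment 1 was in the cluster of 8 arrays and the other pairs were in the cluster of 24. Without experiment 3 the difference was 1.28, and it was 0.63 when each value was centred on neighbouring probes.

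Before and after 30 min ATF3 differed little between the media. At T0 its levels were -1.46, -1.10 and -1.44 in CM and -1.28, -1.24 and -1.26 in NCM, and at 15 min they were -1.31, -1.12 and -1.65 against -1.14, -1.51 and -1.61. The groups overlapped at both times, and the mean differences were -0.07 and 0.06. At 1 h the CM arrays stood close together at -0.93, -0.75 and -0.69, while the NCM arrays spread over -2.15, -0.42 and -0.82. The mean difference of 0.34 at 1 h came from experiment 1, whose pair differed by 1.23, and it was -0.10 without that experiment. At 3 h, 6 h and 16 h the mean differences lay between -0.13 and 0.04, and the arrays of both media overlapped at each of these times.

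Ordered by mean level in CM, ATF3 stood at -0.16 at 30 min (SD 0.88, n = 3), -0.79 at 1 h (SD 0.12) and -1.22 at 3 h (SD 0.26), with the remaining times between -1.28 and -1.39. The 30 min and 1 h arrays overlapped, whereas the lowest array at 1 h (-0.93) lay just above the highest at 3 h (-0.97). How many of all probes separate these 2 times in CM was not counted, so no fall after 1 h is read from it. In NCM the 7 means lay within 0.31 of each other, and the limma F tests over time gave an adjusted p of 1.00 in each medium. The limma F tests over time called 0.0145% of probes in NCM and 0.00723% in CM, none of them a member. Sorted by experiment number, the highest ATF3 pair difference fell at 30 min for 3 of 3 numbers, though for experiment 3 it was 0.32 against 0.21 at 16 h. The labels do not say that a number is 1 batch of cells at different times. The time of the highest mean ATF3 difference remained 30 min under every alternative tried. Averaged over 15 min, 30 min and 1 h the difference was 0.45 (SE 0.15, CM above NCM in 6 of 9 pairs, adjusted p = 0.686) and 0.27 without experiment 1, against -0.03 over 3 h, 6 h and 16 h, a late mean in which 0.0434% of probes were called. The early minus late difference was 0.48 (SE 0.21, adjusted p = 0.625), and the 30 min change minus that at T0 was 1.03 (SE 0.36, adjusted p = 0.999).

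KLF4 differed most at 30 min and 16 h, by nearly the same mean but with unlike spread. At 30 min KLF4 levels were -1.58, -1.12 and -1.92 in CM and -2.04, -2.19 and -2.12 in NCM. The 3 CM arrays lay above the 3 NCM arrays, as in 1.17% of all probes at 30 min, and the mean was 1.49-fold higher in CM. The pair differences of 0.47, 1.07 and 0.20 averaged 0.58 (SE 0.25, SD between pairs 0.45, n = 3 pairs, adjusted p = 0.997), and this value was 0.10 with centring on neighbouring probes. At 16 h the levels were -1.23, -2.14 and -1.46 in CM and -1.74, -1.91 and -2.91 in NCM, so the groups overlapped and experiment 2 went the other way. The mean at 16 h was also 0.58 (SE 0.25, SD between pairs 0.84, adjusted p = 0.942) and was 0.14 without experiment 3. The time of the highest mean difference moved from 16 h to 30 min with the deposited values, with median centring, with a higher floor and without experiment 1 or 3.

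KLF4 was lower in CM at 6 h, with levels of -1.87, -1.95 and -1.42 against -1.52, -1.86 and -1.05 in NCM. CM was the lower medium in 3 of 3 pairs, as in 11.3% of all probes, with overlapping groups and a mean difference of -0.27 (SE 0.25, adjusted p = 0.999). At T0, the start of the exposure, CM was higher in 3 of 3 pairs by a mean of 0.23, as in 9.47% of all probes. The 30 min change minus that at T0 was 0.35 (SE 0.35, adjusted p = 0.999). Averaged over 15 min, 30 min and 1 h the KLF4 difference was 0.31 (SE 0.14, CM above NCM in 7 of 9 pairs, adjusted p = 0.694), against 0.10 later, and the early minus late difference was 0.21 (SE 0.20). That early mean was -0.02 with centring on neighbouring probes, 0.15 without experiment 2 and 0.48 without experiment 3. Within each medium KLF4 means moved over 0.71 in NCM and 0.30 in CM across the 7 times.

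**Figure D3:**
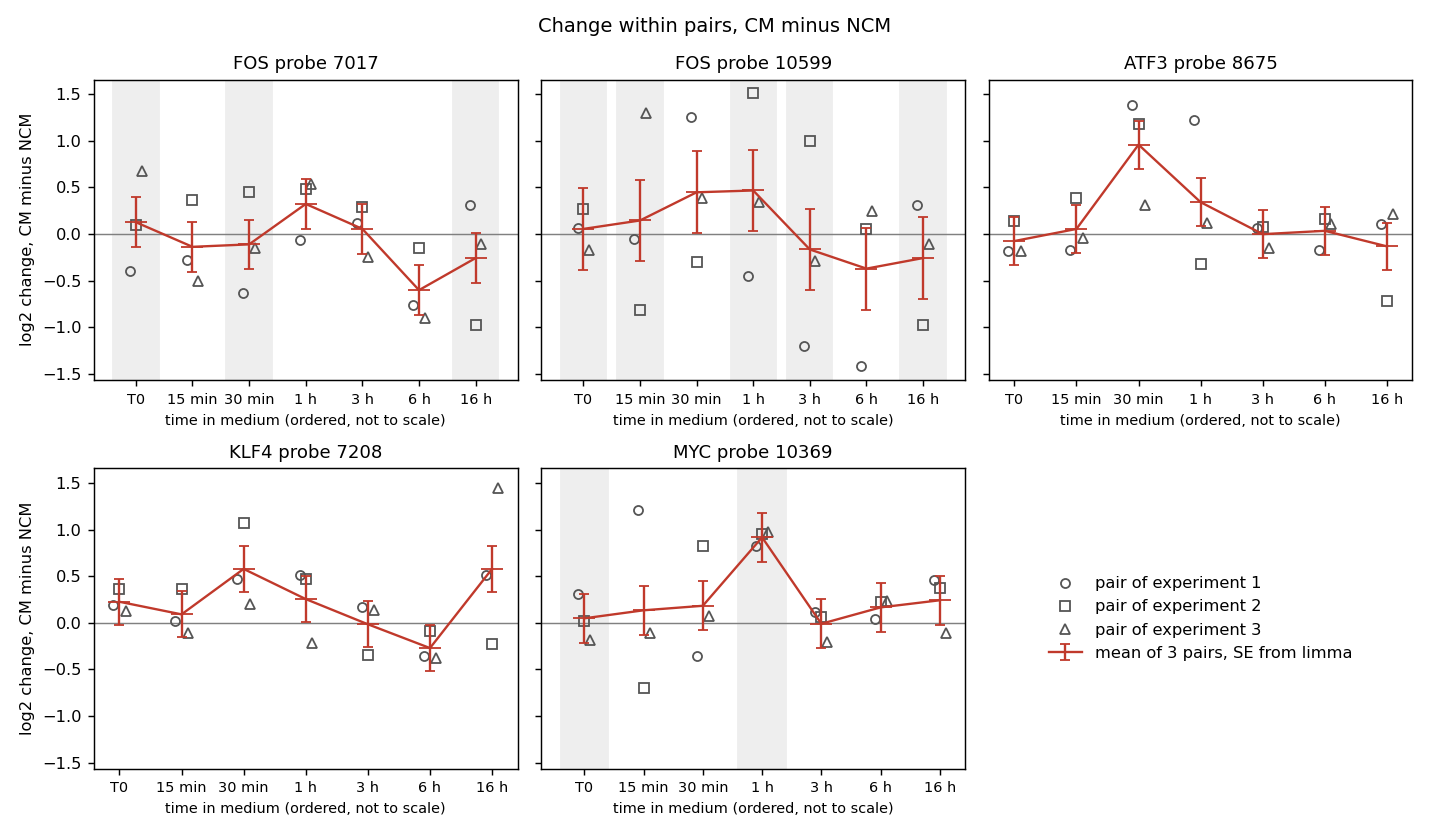
Each panel shows 1 probe, with time in order on the x axis (not to scale) and the log2 difference CM minus NCM on the y axis; grey symbols are the 3 pairs and red points with bars are their mean and its SE from limma. The ATF3 pairs at 30 min run from 0.32 to 1.38 and the KLF4 pairs from 0.20 to 1.07. Grey bands mark shared sets, among them MYC at 1 h, where the pairs run from 0.82 to 0.97.

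MYC had 5 times with values of its own, and at none of them did the arrays of the media separate. At 15 min MYC levels were 0.24, -1.47 and -0.26 in CM and -0.97, -0.77 and -0.15 in NCM, with pair differences of 1.21, -0.70 and -0.11. At 30 min they were 0.05, -0.16 and 0.21 in CM and 0.41, -0.99 and 0.13 in NCM, and the groups again overlapped. At 6 h the CM arrays at -0.58, -0.47 and 0.06 were higher than their NCM partners at -0.62, -0.69 and -0.17 in 3 of 3 pairs, as in 13.3% of all probes, with a mean difference of 0.17 and overlapping groups. Refitted over these 5 times, the mean difference over 15 min and 30 min was 0.16 (SE 0.20, 6 pairs, adjusted p = 0.932) and that over 3 h, 6 h and 16 h was 0.13 (SE 0.17, 9 pairs, adjusted p = 0.936). This restriction was chosen after the shared values were seen.

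At 1 h, where the deposited MYC values are those shared with CRY2, the levels were 0.12, -0.48 and -0.54 in CM and -0.71, -1.44 and -1.51 in NCM. All 3 CM arrays lay above all 3 NCM arrays, an arrangement seen in 2.4% of all probes at 1 h, and CM was the higher medium in 3 of 3 pairs, as in 15.6% of all probes. The pair differences were 0.82, 0.96 and 0.97, which is a mean of 0.92 (SE 0.26, n = 3 pairs, adjusted p = 0.977). For CRY2 the T0 pairs of the same experiment numbers, which are other arrays with their own normalization, differed by -0.36, 1.22 and 0.22. Their mean was 0.36 (SD 0.80, n = 3 pairs). With 1 h included the MYC difference over the 3 early times was 0.41 (SE 0.15, CM above NCM in 6 of 9 pairs, adjusted p = 0.686), which is more than 0.16 without it.

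At T0, where the deposited MYC values are those of JUN at 16 h, the levels were -1.65, -1.49 and -1.76 in CM and -1.96, -1.50 and -1.58 in NCM. The 36 later arrays, 6 of them from the shared 1 h set, ran from -1.51 to 0.41 with a median of -0.47, and 35 of them lay above all 6 arrays at T0, as in 0.00723% of probes. On the means of the 2 arrays of each pair, later minus T0 was 1.16 (SE 0.25, 18 against 3 pairs, adjusted p = 0.998), and limma called 0% of probes for it; this contrast was chosen after its values were seen. Since the T0 set is shared, the table does not show whether MYC was lower at T0.

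By mean level in NCM the 5 unshared MYC times ran from 30 min (-0.15) through 6 h (-0.49), 3 h (-0.56) and 15 min (-0.63) to 16 h (-0.77). In CM the order was 30 min (0.03), 6 h (-0.33), 15 min (-0.50), 16 h (-0.53) and 3 h (-0.57). Neighbouring times in these orders overlapped. The limma F tests over the 7 times gave MYC an adjusted p of 1.00 in both media.

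FOS encodes the AP-1 subunit whose induction is the classic immediate early response. Its early sets with values of their own were those of probe 7017 at 15 min and 1 h and of probe 10599 at 30 min. In none of these sets did all 3 pairs go the same way. For FOS probe 7017 the largest difference was at 6 h, a time with values of its own, when levels were -1.84, -1.45 and -2.28 in CM and -1.08, -1.30 and -1.38 in NCM. The 3 CM arrays lay below the 3 NCM arrays, as in 2.18% of all probes at 6 h, and the mean difference was -0.60 (SE 0.27, n = 3 pairs, adjusted p = 0.999). Its highest difference, 0.32, came at 1 h, when the levels were -1.24, -1.25 and -1.33 in CM and -1.18, -1.73 and -1.87 in NCM. At 15 min its mean difference was -0.14, and at 30 min, a shared set, it was -0.11. The early mean was 0.03 (SE 0.15, CM above NCM in 4 of 9 pairs, adjusted p = 0.986) and, refitted over its 4 unshared times, 0.094 over 15 min and 1 h (SE 0.16, 6 pairs, adjusted p = 0.924).

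FOS probe 10599 had values of its own at 30 min and 6 h. At 30 min the mean difference was 0.45 with 2 of 3 pairs higher in CM, and it ran from 0.045 without experiment 1 to 0.82 without experiment 2. Refitted over these 2 times, the SE at 30 min was 0.36 (adjusted p = 0.996), and the difference at 6 h was -0.37 (SE 0.36, adjusted p = 0.999). At 1 h, where 5 of 6 values are those of ZNF302 at T0, the levels were -3.39, -0.75 and -0.84 in CM and -2.93, -2.26 and -1.19 in NCM. The groups overlapped at 1 h, and the pair differences of -0.45, 1.51 and 0.35 averaged 0.47 (SE 0.44, n = 3 pairs, adjusted p = 0.977). For ZNF302 the T0 pairs of the same experiment numbers, which are other arrays, differed by 0.61, 1.54 and 0.04.

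At 16 h the FOS probes are not separate measurements, since both held -0.66, -2.48 and -1.66 in CM and -0.97, -1.51 and -1.55 in NCM. Their common difference of -0.26 therefore rests on 1 set of arrays.

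Whether the 4 genes had a common time of largest difference cannot be told, since MYC and FOS hold shared sets. As deposited, the largest difference fell at 30 min for ATF3 (0.96) and at 16 h or 30 min for KLF4 (0.58). For MYC it stood at 1 h (0.92, shared values), for FOS probe 7017 at 6 h (-0.60) and for FOS probe 10599 at 1 h (0.47, shared values). Across the 21 pairs the differences of ATF3 and KLF4, which share no values, correlated at 0.49, the highest value between any 2 member probes. The value was 0.60 without 16 h, while their levels on the 42 arrays correlated at 0.07. How many of all probe pairs correlate as highly was not counted. Within a pair both probes were read on the same arrays, and the labels do not say whether pairs of different times share a batch. These correlations are therefore descriptions. The limma F test over the 6 times after T0 gave all 5 probes an adjusted p of 1.00 and called 0% of all probes. It found 414 probes at an unadjusted p under 0.05, less than a share of 0.05 of all 13824 probes. The early mean was above 0 for all 5 probes in the reported processing, from 0.03 to 0.45, and over all measured genes it was above 0 in 48.1%. Those of MYC and both FOS probes include shared sets, so nothing is read from this count. For FOS probe 7017 it was below 0 with the deposited values (-0.08), median centring (-0.10), the higher floor (-0.02) and without experiment 2 (-0.18). For KLF4 it was below 0 with neighbour centring.

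Related genes were followed in 8 lists, and limma called 0% of all probes in the early mean and 0 genes of any list at any time. Of the 90 genes measured, 3 (JUNB, CEBPB and STAT3) had a shared set at an early time, and JUN at 16 h is the set shared with MYC. Of the AP-1 and ATF partners 13 of 23 were measured, with an early median of 0.04 and 7 above 0. JUN, the main partner of FOS, had an early mean of 0.52 (SE 0.18, CM above NCM in 9 of 9 pairs, adjusted p = 0.686). However, JUN was already higher in CM by a mean of 0.30 at T0. How many of all probes were higher in 9 of 9 early pairs was not counted. ATF4, a stress response factor, had an early mean of -0.28. The early median over all measured genes was -0.01, with 48.1% of them above 0, so the list lay close to that background. The KLF family, 6 of 15 measured, had a median of 0.05 with 4 above 0, led by KLF3, a repressor, at 0.31 and SP1, a general activator, at 0.14. The MYC network, 4 of 12 measured, had 2 above 0 and a median that was 0 to 2 decimals. In it MLX, which pairs with MondoA and ChREBP, had 0.34 and MLXIPL, which encodes ChREBP, had -0.06.

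Among the other immediate early genes, 25 of 38 were measured, with an early median of -0.02 and 11 above 0. NFKBIA, the inhibitor of NF-kappaB, had 0.85 (SE 0.15, CM above NCM in 8 of 9 pairs, adjusted p = 0.267), and CEBPD, an acute phase transcription factor, had 0.57. Upstream signalling genes, 10 of 28 measured, had the highest list median, 0.13, with 8 above 0, against 48.1% of all genes. By limma 0 of the 10 had an unadjusted p under 0.05 in the early mean, against 6.3% of all genes. In this list MAPK9, which encodes JNK2, had 0.15 and JAK2, a cytokine receptor kinase, had 0.32. Targets stood near or below 0 early. Of the MYC targets, 14 of 24 measured, 6 were above 0 with a median of -0.05, and EIF4E, the cap-binding factor, had -0.41 and LDHA, lactate dehydrogenase A, had -0.32. Of the AP-1 targets, 10 of 14 measured, 4 were above 0 early with a median of -0.03 and 9 were above 0 over the late times with a median of 0.17, against 50.4% of all genes above 0 late. CXCL8, a chemokine, had 0.19 early and 0.26 late, and MT2A, a metallothionein, had -0.21 early and 0.32 late, although its values at 3 h, 6 h and 16 h are shared sets. Of the ATF3 and stress response genes, 8 of 13 measured, 4 were above 0 with a median of 0.02, and CDKN1A, a cell cycle inhibitor, had -0.19 and NDRG1, a stress-responsive gene, had -0.21.

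**Figure D4:**
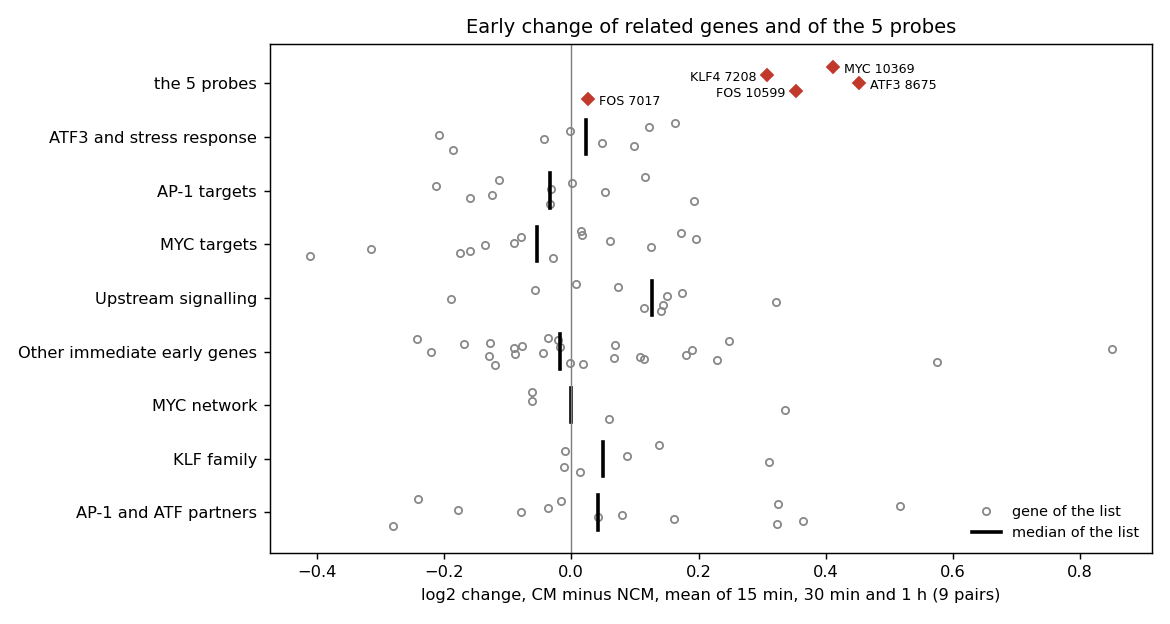
The x axis gives the log2 difference CM minus NCM averaged over 15 min, 30 min and 1 h (9 pairs); each row is a list of related genes, circles are single genes, black bars are list medians and red diamonds are the 5 probes. List medians lie between -0.05 and 0.13, with single genes as high as NFKBIA at 0.85, and the 5 probes lie between 0.03 and 0.45, where those of FOS and MYC include shared sets.

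The genes whose 21 pair differences were most like each probe were found among 5627 genes. For ATF3 they were DNAJA4, which encodes an HSP40 cochaperone (r = 0.76), SYF2 (0.73) and MLX (0.72). DNAJA4 also had its largest difference at 30 min, 0.84. For MYC they were TMEM184C (0.79), SPTY2D1 (0.77) and ATP2B1, a plasma membrane calcium pump (0.73), and for KLF4 they were ZNF397 (0.78), LARP6 (0.74) and TMEM168 (0.74). For FOS probe 7017 they were AAMP (0.77), ULK3 (0.71) and RASSF5 (0.70), and for FOS probe 10599 they were COBLL1 (0.70), ANKRD28 (0.68) and NGLY1 (0.65). Of these 15 genes 4 had a probe number in the same block of 384 as the member, TMEM184C and SPTY2D1 with MYC and LARP6 and TMEM168 with KLF4. The part of the probes' position in these correlations was not tested, and those of MYC and FOS include pairs from shared sets.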

How the data were processed

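Messenger RNA was measured on 42 arrays, and the deposited table holds linear intensity values by the authors, 1 per probe and array, with a mean near 1 on every array. Array type, scanner, background correction, scaling and build: not given in the sources used here. The SD of the arrays' log2 medians was 0.31, over the limit of 0.1, so arrays were quantile normalized on the linear scale, floored at the common 1st percentile (0.0812) and put on the log2 scale. R 4.3.3 with limma 3.58.1 fitted all 42 arrays with a term for every pair and a CM effect for every time, on 14 residual and 6.26 prior degrees of freedom; tests were two-sided, adjusted by Benjamini-Hochberg over 13824 probes. F tests over time used the 21 arrays of a medium with no block. The pairing comes from the labels: paired arrays deviated together from their group means, with correlations of 0.308 to 0.754 and above 0.1 in 21 of 21 pairs. Precision is limited by how few arrays a group has.

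Symbols come from the platform annotation; 7336 probes name 1 gene, 576 several and 5912 none. The text names the members, up to 3 genes most like each probe, and the 2 genes of each list with the smallest unadjusted p in the early mean. A list gene is its brightest probe. Members and lists were chosen with earlier results of these data known. Promoter windows and motif shares were read from RefSeq tables, plots used matplotlib 3.10.9, and the fit was tested on simulated data. Shared values were searched on the deposited intensities over all pairs of probe and time, by equality of the last 6 of 9 decimals on all 6 arrays in the order of medium and experiment; the search and the refits over unshared times were chosen after seeing the data. Neighbour centring assumed that probe numbers give places on 36 grids of 16 by 24. Other alternatives were the deposited values, median centring, filters on dim probes, a higher floor, an intensity trend, no block, each time alone and leaving out replicates. Clusters of arrays and later times against T0 were chosen after seeing the data.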

Additional observations from a re-analysis of the deposited data

Results flagged for a closer look

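The mean difference of KLF4 between the media had opposite signs at different times. CM was higher than NCM in 3 of 3 pairs at T0 (0.23) and at 30 min (0.58), and lower in 3 of 3 pairs at 6 h (-0.27), all on the log2 scale with n = 3 pairs. Of all probes, 9.47% at T0 and 8.8% at 30 min were higher in 3 of 3 pairs, and 11.3% at 6 h were lower. The 30 min value was 0.10 with centring on neighbouring probes. By limma over all probes the 30 min change minus that at T0 was 0.35 (adjusted p = 0.999) and the 6 h change minus that at T0 was -0.50 (adjusted p = 1.00), while 30 min against 6 h was not tested. None of the 3 changes passed the threshold.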

How the results depend on the processing

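No member passed the threshold under any alternative in the CM against NCM comparisons. ATF3 at 30 min ran from 0.63 to 1.28 (adjusted p 0.801 to 1.00), MYC at 1 h from 0.55 to 0.96 (0.714 to 1.00), KLF4 at 30 min from 0.10 to 0.77 and FOS probe 7017 at 6 h from -0.83 to -0.34. Without the pairs as a block, ATF3 at 30 min and MYC at 1 h each had an adjusted p of 1.00 by limma, and the block changed no call of a member. MYC at later times minus T0, where T0 holds the values of JUN at 16 h, passed without replicate 1 (1.11, adjusted p = 0.0478). With shared times left out, the early means of FOS probe 7017 (0.094), FOS probe 10599 (0.45) and MYC (0.16) stayed short of the threshold. The early mean of FOS probe 7017 (0.03) was -0.082 with the deposited values, -0.098 with median centring, -0.016 with a floor at the 10th percentile and -0.179 to 0.200 leaving out 1 replicate. FOS probe 10599 at 1 h was -0.053 to 0.928 leaving out 1 replicate. With neighbour centring KLF4 had an early mean of -0.015 and early minus late of -0.094, which was -0.112 to 0.538 leaving out 1 replicate. Counts of called probes over the whole array moved by few probes. At 1 h 0 to 1 were called leaving out 1 replicate, and at 3 h 1 without the dimmest 25% or 50%, with the higher floor or with an intensity trend. At 16 h 0 were called with the deposited values, median centring, no block or each time alone and leaving out any replicate (0 to 0), 2 without the dimmest 25% or with the higher floor, 3 with the trend, 5 with neighbour centring and 7 without the dimmest 50%. For the late mean 1 was called with the deposited values or median centring, 0 with no block or leaving out any replicate, and 10 with the trend. Early minus late had 1 without the dimmest 50%, and the F test over times after T0 had 2 with the trend. NCM over time had 1 with the deposited values or median centring and 0 leaving out any replicate, and CM over time had 2 with median centring, with the trend or without the dimmest 25% or 50%, and 0 to 1 leaving out 1 replicate. The cause was not tested. KLF4 and both FOS probes were dim, with 14.4%, 22.1% and 16.6% of probes dimmer.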
